A study of Mus musculus with 11 samples.

Results

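The genes described here are 10 oocyte genes, *Gdf9*, *Bmp15*, *H1foo*, *Oosp1*, *Zp1*, *Zp2*, *Zp3*, *Nlrp5*, *Figla* and *Nobox*, in RNA-Seq of male germ cells. They were 10 of the 37991 Ensembl genes in the tables and were found by gene name. They were selected on their own values, because several of them were high in the 3 libraries of 8-month-old mice and low in the 8 libraries of other ages. The comparison of 8 months with the other ages is therefore given as a description without a test.

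The cells were GFP+ germ cells sorted by FACS from Oct4-GFP mice (B6;CBA background, transgene Tg(Pou5f1-EGFP)2Mnn), in which regulatory sequence of *Pou5f1* (*Oct4*) drives green fluorescent protein, so all 6 groups carried the same transgene and received no treatment. KIT, a receptor tyrosine kinase that appears on spermatogonia as they begin to differentiate, divided them into undifferentiated KIT- and differentiating KIT+ cells. Mice of 6 days gave 2 KIT- and 2 KIT+ libraries, mice of 8 months gave 2 KIT- libraries and 1 KIT+ library, and mice of 15 months gave 2 KIT- and 2 KIT+ libraries. Ages are given as the labels state them, and the study's paper gives them partly otherwise. Cells were sorted in 2 independent experiments, and the sources used here do not say how many animals stood behind a library. Libraries were made from total RNA after removal of ribosomal RNA and read paired-end, and 1 RPKM value (reads scaled to the kilobases of exon and to the library's reads on genes) was deposited per gene and library.

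The 8-month libraries were the shallowest, with 12238325, 16627836 and 13815099 reads on genes against 25371500 to 76756536 in the other libraries, but they had the most genes above 0 (20049 to 21285 against 17182 to 19906). RNAs of spermatogonia were present in them. *Pou5f1*, whose regulatory sequence drives the sorted GFP, stood at 68.7, 52.6 and 5.13 RPKM in KIT- replicates 1 and 2 and KIT+. *Kit* stood at 5.63 and 6.47 RPKM in the 8-month KIT- libraries and at 81.3 RPKM in the KIT+ library, and *Zbtb16*, which encodes the spermatogonial transcription factor PLZF, stood at 132, 141 and 39.1 RPKM. In these bulk samples, fewer cells of a type and less RNA per cell cannot be told apart.

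In the ovary, growing oocytes build a store of maternal RNA and protein that carries the embryo through its first divisions. FIGLA and NOBOX are transcription factors that switch on this program in the young follicle, the zona pellucida proteins form the coat around the egg, and GDF9 and BMP15 are secreted by the oocyte to act on the surrounding granulosa cells. H1FOO replaces somatic linker histones in oocyte chromatin, OOSP1 is a secreted oocyte protein, and NLRP5 (MATER) is part of the subcortical maternal complex that the early embryo needs. Male germ cells share some of the regulators of this program, such as *Sohlh1*, *Sohlh2* and *Taf4b*.

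RefSeq promoter windows (250 bases before to 50 bases after the start site, build GRCm38.p6) were at hand for 7 of the 10 genes. Those of *Gdf9*, *Zp1* and *Zp2* are not given. The windows of *H1foo* (chr6:115944681-115944980, plus strand), *Bmp15* (chrX:6320675-6320974, minus strand) and *Oosp1* (chr19:11691002-11691301, minus strand) are shown because these genes were high at 8 months alone. Those of *Zp3* (chr5:135979855-135980154, plus strand) and *Figla* (chr6:86016941-86017240, plus strand) are shown because these genes were read at every age. Capitals mark CANNTG (the E-box bound by FIGLA and other bHLH factors) and its form CAGCTG, the NOBOX letters TAATTG together with the variant TAGTTG, and the TATA box TATAAA, each searched on both strands, so that CAGCTG matches also count as CANNTG.
H1foo: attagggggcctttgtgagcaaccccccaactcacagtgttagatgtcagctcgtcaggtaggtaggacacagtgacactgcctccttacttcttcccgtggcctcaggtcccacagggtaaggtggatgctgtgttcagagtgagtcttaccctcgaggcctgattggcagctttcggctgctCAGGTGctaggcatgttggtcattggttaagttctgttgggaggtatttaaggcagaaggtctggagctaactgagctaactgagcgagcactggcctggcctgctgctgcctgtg
Bmp15: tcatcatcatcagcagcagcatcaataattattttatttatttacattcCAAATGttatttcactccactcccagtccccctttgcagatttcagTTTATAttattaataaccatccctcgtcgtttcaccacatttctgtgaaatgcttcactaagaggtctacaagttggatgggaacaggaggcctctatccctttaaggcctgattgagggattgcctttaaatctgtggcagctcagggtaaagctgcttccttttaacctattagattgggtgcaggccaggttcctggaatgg
Oosp1: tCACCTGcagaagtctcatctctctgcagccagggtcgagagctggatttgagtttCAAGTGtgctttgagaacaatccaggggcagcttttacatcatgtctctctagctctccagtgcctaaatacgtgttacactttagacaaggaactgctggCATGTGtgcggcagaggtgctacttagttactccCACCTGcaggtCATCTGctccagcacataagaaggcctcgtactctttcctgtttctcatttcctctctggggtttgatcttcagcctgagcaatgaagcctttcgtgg
Zp3: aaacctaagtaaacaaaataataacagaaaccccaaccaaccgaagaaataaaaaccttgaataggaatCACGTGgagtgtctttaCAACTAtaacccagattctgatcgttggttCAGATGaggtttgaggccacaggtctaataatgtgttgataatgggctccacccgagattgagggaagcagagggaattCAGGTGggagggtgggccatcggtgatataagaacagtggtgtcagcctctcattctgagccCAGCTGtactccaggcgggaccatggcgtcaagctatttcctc
Figla: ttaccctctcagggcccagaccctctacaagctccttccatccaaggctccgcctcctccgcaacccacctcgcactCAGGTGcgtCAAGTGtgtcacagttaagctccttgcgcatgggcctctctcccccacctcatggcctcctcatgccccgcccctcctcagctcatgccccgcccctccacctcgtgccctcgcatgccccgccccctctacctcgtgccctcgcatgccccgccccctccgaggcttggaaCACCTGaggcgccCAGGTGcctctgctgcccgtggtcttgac
The *H1foo* window held 1 CANNTG, whose first base lay at position -66 from the start site (the base before the start site is -1). The *Bmp15* window held 1 CANNTG and 1 TATAAA (on the minus strand of the window). The *Oosp1* window held 5 CANNTG, and those of *Zp3* and *Figla* held 4 each. TAATTG was in none of these 5 windows and TAGTTG was in that of *Zp3* alone. CANNTG was in 72.3% of all 32851 windows of this length, CAGCTG in 16.3%, TAATTG in 8.00%, TAGTTG in 6.59% and TATAAA in 13.6%. Among the windows of the 3 genes high at 8 months alone, CANNTG was the 1 motif present in more than 1 window.

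The 10 genes split into those that were near 0 outside the 8-month libraries, those that were hardly read anywhere and those that were read at every age. *H1foo*, *Gdf9*, *Bmp15* and *Oosp1* were at 2 RPKM or more in each 8-month library and under 0.5 RPKM in each of the other 8. These cutoffs were set after the values were seen.

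*H1foo* (ENSMUSG00000042279, chr6:115894956-115900254 on mm9, plus strand) had the highest level of the 10. It stood at 29.9 and 20.7 RPKM in the 8-month KIT- libraries (25.3 ± 6.51, SD, n = 2) and at 12.8 RPKM in the 8-month KIT+ library. It was at 0 in 7 of the other libraries and at 0.162 RPKM (5 reads) in 6-day KIT- replicate 2. Over the 3 8-month libraries 1066 reads fell on *H1foo*, against 5 over the other 8, which is 1629.5-fold more per read on genes (95% exact interval 696 to 5029). Intervals of this kind and the 3-read limits given for 0 cover counting error alone. In the 8-month KIT- libraries 1657 and 2418 of the 18412 genes tested had a higher RPKM, and 4127 had one in the KIT+ library, so *H1foo* was among the more abundant genes there.

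*Gdf9* (ENSMUSG00000018238, chr11:53244525-53251406, plus strand) encodes the oocyte ligand that granulosa cells need for follicle growth. It stood at 15.5 and 9.65 RPKM in the 8-month KIT- libraries (12.6 ± 4.13, SD, n = 2) and at 6.13 RPKM in the KIT+ library. It was the one gene of these 4 with reads at every age. Its values were 0, 0.172, 0.224 and 0.0388 RPKM in the 6-day libraries (KIT- replicates 1 and 2, then KIT+ replicates 1 and 2) and 0.0998, 0.484, 0.150 and 0.186 RPKM in the 15-month libraries in the same order. The lowest 8-month library was 6.13 RPKM and the highest other library 0.484 RPKM, and pooled reads were 58.2-fold higher at 8 months (95% exact interval 47.9 to 71.2).

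*Bmp15* (ENSMUSG00000023279, chrX:5891225-5897839, minus strand) encodes the X-linked partner of GDF9. It stood at 4.59 and 3.60 RPKM in the 8-month KIT- libraries (4.09 ± 0.704, SD, n = 2) and at 2.01 RPKM in the KIT+ library. It had 7 reads in 6-day KIT- replicate 2 (0.0890 RPKM) and 3 in 6-day KIT+ replicate 1 (0.0262 RPKM), and was at 0 in the other 6 libraries, the 15-month ones among them. Both ligands were present in each 8-month library, and *Gdf9* had the higher RPKM of the pair in each.

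*Oosp1* (ENSMUSG00000041857, chr19:11741950-11765640, minus strand) stood at 12.7 and 10.1 RPKM in the 8-month KIT- libraries (11.4 ± 1.81, SD, n = 2) and at 4.61 RPKM in the KIT+ library. It was at 0 reads in each of the 8 other libraries, where 3 reads would have been 0.0395 to 0.119 RPKM. Its 384 reads at 8 months were at least 978-fold higher per read on genes than 3 reads over the other 8 libraries.

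Of the 3 zona pellucida genes, *Zp2* alone was likewise read at 8 months only, at a far lower level than these 4. *Zp2* (ENSMUSG00000030911, chr7:127270286-127288804, minus strand), a sperm-binding coat protein, had 7, 4 and 5 reads in the 8-month libraries (0.236, 0.0994 and 0.150 RPKM) and 0 in the other 8. *Zp1* (chr19:10988777-10995122, minus strand), which cross-links the coat filaments, had 8, 6 and 1 reads in the 8-month libraries (0.330, 0.182 and 0.0365 RPKM). It also had 12 in 6-day KIT- replicate 1 (0.211 RPKM) and 1 each in 6-day KIT+ replicate 2 and 15-month KIT- replicate 2. Both were too low for the tests, which took genes with at least 10 reads in at least 2 libraries. *Zp3* (chr5:136455969-136464494, plus strand), the third coat protein here, stood at 1.05 and 0.955 RPKM in the 8-month KIT- libraries and at 2.35 RPKM in the KIT+ library. It stood at 0.475, 0.0294, 0.242 and 0.298 RPKM at 6 days and at 0.977, 0, 1.18 and 1.99 RPKM at 15 months (KIT- replicates, then KIT+ replicates). Its 8-month and 15-month ranges overlapped.

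The transcription factors were read at every age. *Figla* (chr6:85967185-85970990, plus strand) stood at 4.41 and 3.17 RPKM in the 8-month KIT- libraries and at 3.24 RPKM in the KIT+ library. Its values were 0.322, 0.871, 1.69 and 1.77 RPKM at 6 days and 2.97, 1.80, 2.18 and 2.49 RPKM at 15 months. The 8-month libraries lay above the others, but the lowest of them (3.17 RPKM) was close to the highest of the others (2.97 RPKM, 15-month KIT- replicate 1), a gap smaller than the SD of the 8-month KIT- libraries (0.880 RPKM, n = 2). *Nobox* (chr6:43253673-43259561, minus strand) stood at 0.129 and 0.475 RPKM in the 8-month KIT- libraries and at 1.52 RPKM in the KIT+ library. It stood at 0.0184, 0.675, 1.77 and 0.581 RPKM at 6 days and at 0.0133, 0.0157, 0.409 and 1.73 RPKM at 15 months. Of the 8 other libraries 5 were at or above the lowest 8-month library, so *Nobox* was not an 8-month gene in these libraries. Its highest library at each age was a KIT+ one.

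*Nlrp5* (chr7:24170908-24226941, plus strand), of the subcortical maternal complex, lay between these patterns. It stood at 1.17 and 1.33 RPKM in the 8-month KIT- libraries and at 1.08 RPKM in the KIT+ library, against 0.135, 0.344, 0.221 and 0.218 RPKM at 6 days and 0.448, 0.633, 0.588 and 0.737 RPKM at 15 months. The 3 groups of age did not overlap, with the 15-month libraries in the middle. A miRNA gene lies within *Nlrp5*, and strand use in the counting is not given in the sources used here.

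Over the whole set, the lowest 8-month library was above the highest other library for 7 of the 10 genes, 6 of them among the 8 that passed the filter on low values. The same held for 765 of the 18412 genes tested (4.15%). The members were chosen on this comparison, so nothing is read from these counts. Summed over the 10 genes, RPKM was 70.1, 50.3 and 33.9 in the 8-month libraries, 1.16 to 4.17 at 6 days and 2.95 to 7.14 at 15 months.

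**Figure D1:**
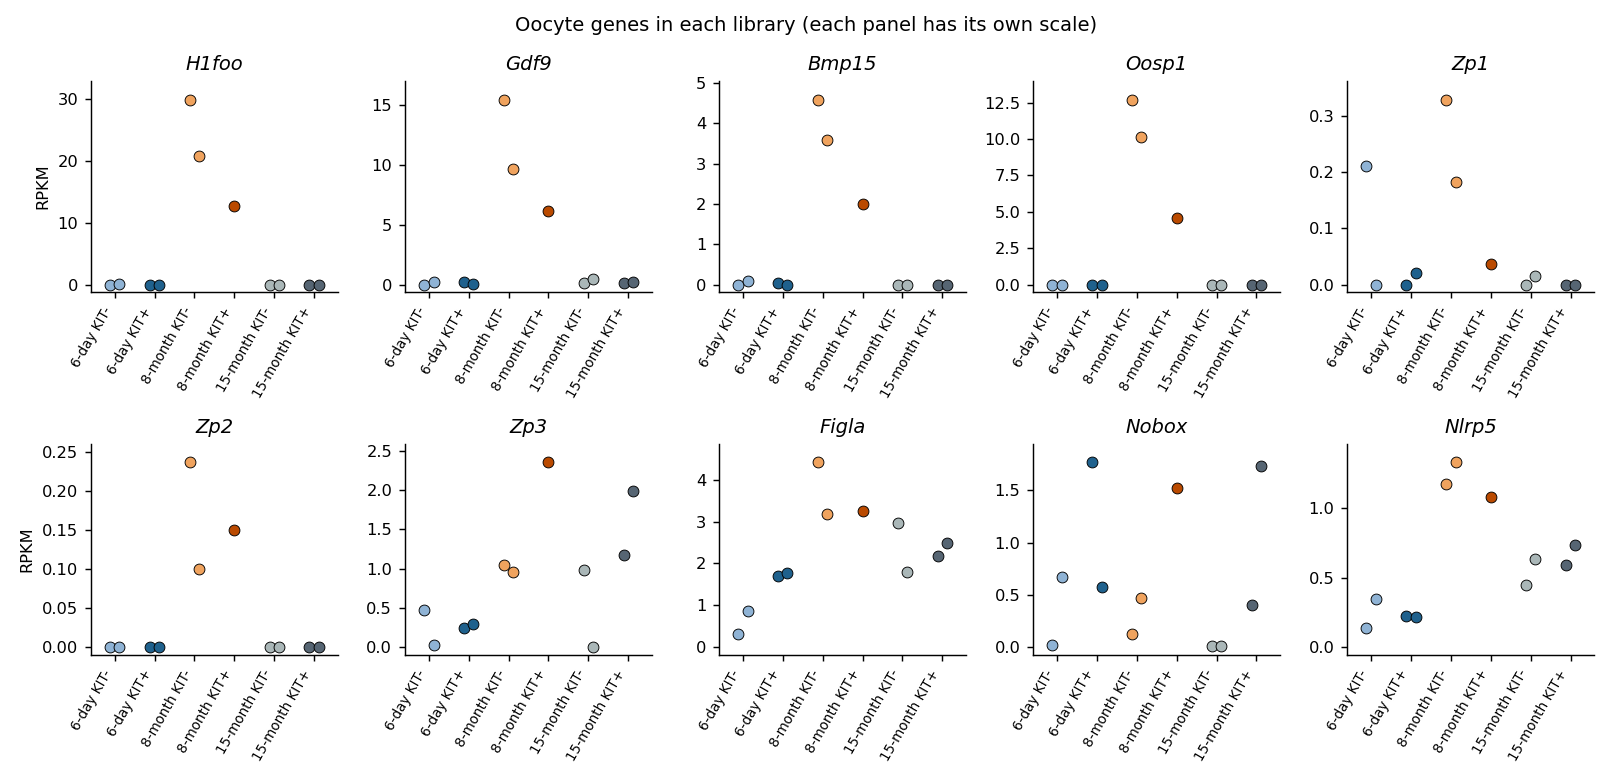
RPKM of each of the 10 oocyte genes (1 panel per gene, linear axis with its own scale) in the 11 libraries, 1 point per library, placed by group on the horizontal axis. *H1foo*, *Gdf9*, *Bmp15* and *Oosp1* are above 2 RPKM in the 3 8-month libraries and under 0.5 RPKM in the other 8, while *Zp3*, *Figla* and *Nobox* have points well above 0 at each age.

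The 4 genes high at 8 months alone kept the same order by read number and similar shares of their joint reads in the 3 libraries. *H1foo* took 38.2% of their 1151 reads in 8-month KIT- replicate 1 (95% exact interval 35.4 to 41.1), 38.0% of 1090 in replicate 2 (35.1 to 40.9) and 39.8% of 532 in the KIT+ library (35.7 to 44.2). *Gdf9* took 33.4%, 29.9% and 32.3% in the same order, *Bmp15* 14.9%, 16.8% and 16.0%, and *Oosp1* 13.4%, 15.3% and 11.8%. The intervals of the 3 libraries overlapped for each gene. What changed between libraries was the total, which was 94.0, 65.6 and 38.5 RPM (the scaling of RPKM without exon length) in the 8-month libraries and at most 0.982 in the other 8.

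**Figure D2:**
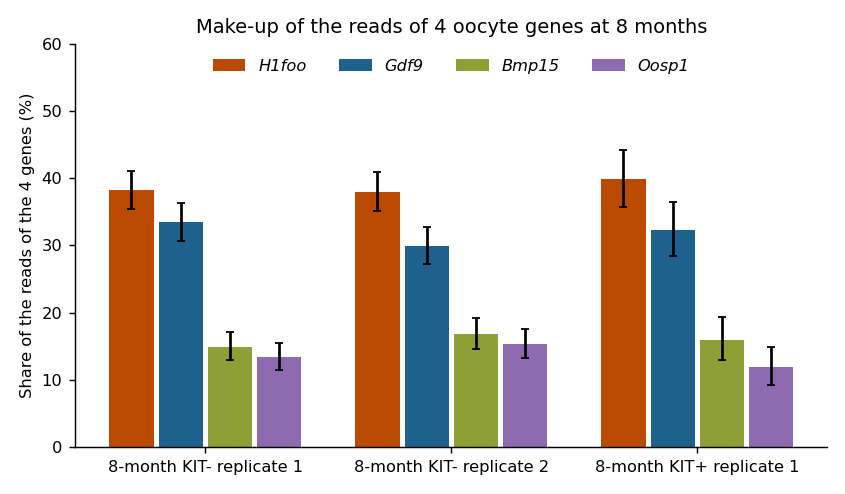
Share of each gene (percent, vertical axis from 0) in the joint reads of *H1foo*, *Gdf9*, *Bmp15* and *Oosp1* in the 3 8-month libraries, with 95% exact binomial intervals as bars. The shares of *H1foo* run from 38.0% to 39.8%, and the intervals of the 3 libraries overlap for each gene.

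The comparison of KIT+ with KIT- cells at 8 months was not used to choose the genes, and it asked whether the oocyte RNAs went with the undifferentiated or the differentiating fraction. The KIT+ group was 1 library, assumed in the test to vary like the other groups, whose spread was pooled. *Oosp1*, *H1foo* and *Bmp15* were at 0 in 8, 7 and 6 of the 8 libraries of other ages. Their SEs and p-values thus rest largely on libraries without reads of the gene and can be too small. Their calls therefore cannot be weighed against the share over all genes. *Oosp1*, *H1foo* and *Bmp15* were called lower in the KIT+ library. *Gdf9* had a like difference that missed the threshold, and the genes read at every age were not called. The test was limma on log2(RPKM + 1) across the 18412 genes, in which a call needed a Benjamini-Hochberg adjusted p at or under 0.05 together with a 1.5-fold difference or more. All log2 fold changes here are on that scale, which understates the change of low genes. *Oosp1* was lower by a log2 fold change of -1.14 ± 0.18 (SE, limma adjusted p = 0.00689), *H1foo* by -0.91 ± 0.25 (limma adjusted p = 0.0451) and *Bmp15* by -0.75 ± 0.16 (limma adjusted p = 0.0201). The value of *Gdf9* was -0.89 ± 0.31 (limma adjusted p = 0.0943). As plain ratios, the KIT+ library was at 0.403 of the KIT- mean for *Oosp1*, 0.488 for *Gdf9*, 0.491 for *Bmp15* and 0.504 for *H1foo*.

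*Nobox* and *Zp3* had positive values that did not pass, 0.97 ± 0.48 (limma adjusted p = 0.231) and 0.74 ± 0.40 (limma adjusted p = 0.269). *Figla* stood at -0.16 ± 0.31 and *Nlrp5* at -0.11 ± 0.17 (limma adjusted p = 0.800 and 0.738). Of the 8 members tested, 0 were thus called higher and 3 lower in KIT+ cells. Among the 5 members that pass the filter in the 8 other libraries alone, 0 were called. Of all genes tested 1289 (7.00%) were called higher and 1261 (6.85%) lower. The 3 calls are not weighed against that share, for the reason given above. The median log2 fold change of the 8 members was -0.46 beside -0.03 over all genes. The 3 called genes passed the filter through the 8-month libraries only, with 63 to 212 reads in the KIT+ library. The 3 calls were lost with voom on the recovered reads, with a pseudocount of 0.1 and with the 8-month groups fitted alone, where limma called 0 of all genes tested although 6269 had an unadjusted p under 0.05 (limma adjusted p from 0.0858 to 0.456 over these 3 fits), *H1foo* also missed the threshold without the filter (0.0654), and without 8-month KIT- replicate 1 *Oosp1* was the 1 member still called.

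**Figure D3:**
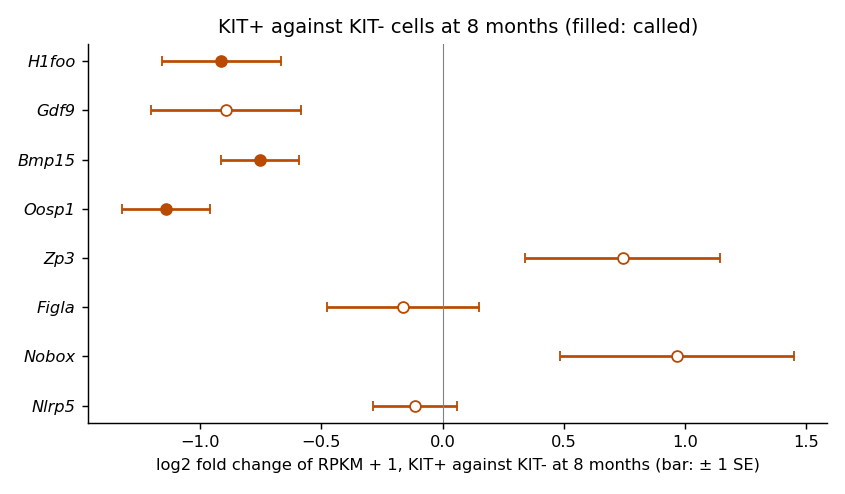
Log2 fold change of RPKM + 1 in KIT+ against KIT- cells at 8 months (horizontal axis) for the 8 oocyte genes that passed the filter, as points with bars of 1 SE from the limma fit over 11 libraries. Filled points mark the called genes *H1foo*, *Bmp15* and *Oosp1*, which lie at -0.91, -0.75 and -1.14, and open points the other 5.

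Ratios near those of the 4 members were seen in some other oocyte genes. A list of 40 further oocyte genes held the rest of the subcortical maternal complex and other maternal-effect genes, oocyte *Nlrp* genes, egg surface genes, regulators of meiotic arrest and maturation, and families read mostly in oocytes. The list was made with earlier results of these data known, so its direction is not independent evidence. For 23 of the 40, the lowest 8-month library was above the highest other library, 21 of them among the 37 that passed the filter (4.15% of all genes tested did so). Their summed RPKM was 201, 157.5 and 112 in the 8-month libraries, in the order of KIT- replicates 1 and 2 and KIT+, against 52.7 to 63.2 at 6 days and 46.1 to 62.7 at 15 months.

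Among them, 14 genes had at least 1 RPKM in each 8-month library and no overlap with the other ages, a group picked after the values were seen. Their KIT+ library was at 0.432 to 0.635 of the KIT- mean (median 0.521), beside 0.403 to 0.504 for the 4 members and a median of 1.03 over the 10828 tested genes with at least 1 RPKM in each 8-month library. Their ratio of KIT- replicate 1 to replicate 2 was 1.05 to 1.63 (median 1.38), beside 1.25 to 1.60 for the 4 members and a median of 1.04 over those 10828 genes. The order KIT- replicate 1, KIT- replicate 2, KIT+ was thus the same in the 4 members and in these 14 genes. Over the 10828 genes, 48.0% had KIT+ below the KIT- mean and 39.6% had KIT- replicate 1 below replicate 2. The share of them with the full order was not counted. The genes share the same 3 libraries and are not replicates of one another. The 5 list genes with at least 1 RPKM in each 8-month library that did overlap with other ages had a median KIT+ to KIT- ratio of 1.25. They ranged from 0.440 to 1.55, and 2 of the 5 were below 1. The lowest was *Dppa3*, which was read at every age, so a low ratio was not limited to the genes without overlap.

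By name, the 8 list genes with the highest mean RPKM at 8 months were of both kinds. *Bcl2l10*, an oocyte member of the BCL2 family, stood at 28.3, 20.4 and 12.8 RPKM in KIT- replicates 1 and 2 and KIT+ at 8 months, and at no more than 0.446 RPKM elsewhere. *Zbed3*, a maternal protein of the subcortical complex, stood at 19.2, 14.9 and 9.13 RPKM in that order and at no more than 0.663 RPKM elsewhere. *Btg4*, which clears maternal mRNA with the CCR4-NOT deadenylase, stood at 14.0, 10.8 and 6.43 RPKM, and at no more than 0.375 RPKM elsewhere. *E330034G19Rik* stood at 10.8, 7.91 and 4.29 RPKM and was at 0 in the other 8 libraries. These 4 genes thus had no library of another age near their 8-month values.

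The other 4 were read at every age. *Dppa3* (STELLA), a maternal-effect gene that germ cells of both sexes use, stood at 19.1, 17.5 and 8.03 RPKM at 8 months, 0.928 to 3.88 RPKM at 6 days and 5.02 to 16.0 RPKM at 15 months. *Nlrp4f* stood at 12.0 to 14.2 RPKM at 8 months, 30.5 to 38.4 RPKM at 6 days and 13.0 to 22.4 RPKM at 15 months. *Nlrp14*, which the testis also expresses, stood at 7.36 to 11.1 RPKM at 8 months, 9.08 to 13.8 RPKM at 6 days and 8.80 to 17.4 RPKM at 15 months. *Tle6*, of the subcortical complex, stood at 7.44 to 11.6 RPKM at 8 months, 2.41 to 4.57 RPKM at 6 days and 6.08 to 13.1 RPKM at 15 months. Their 8-month values lay within or beside those of another age, as those of *Zp3* and *Nobox* did.

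**Figure D4:**
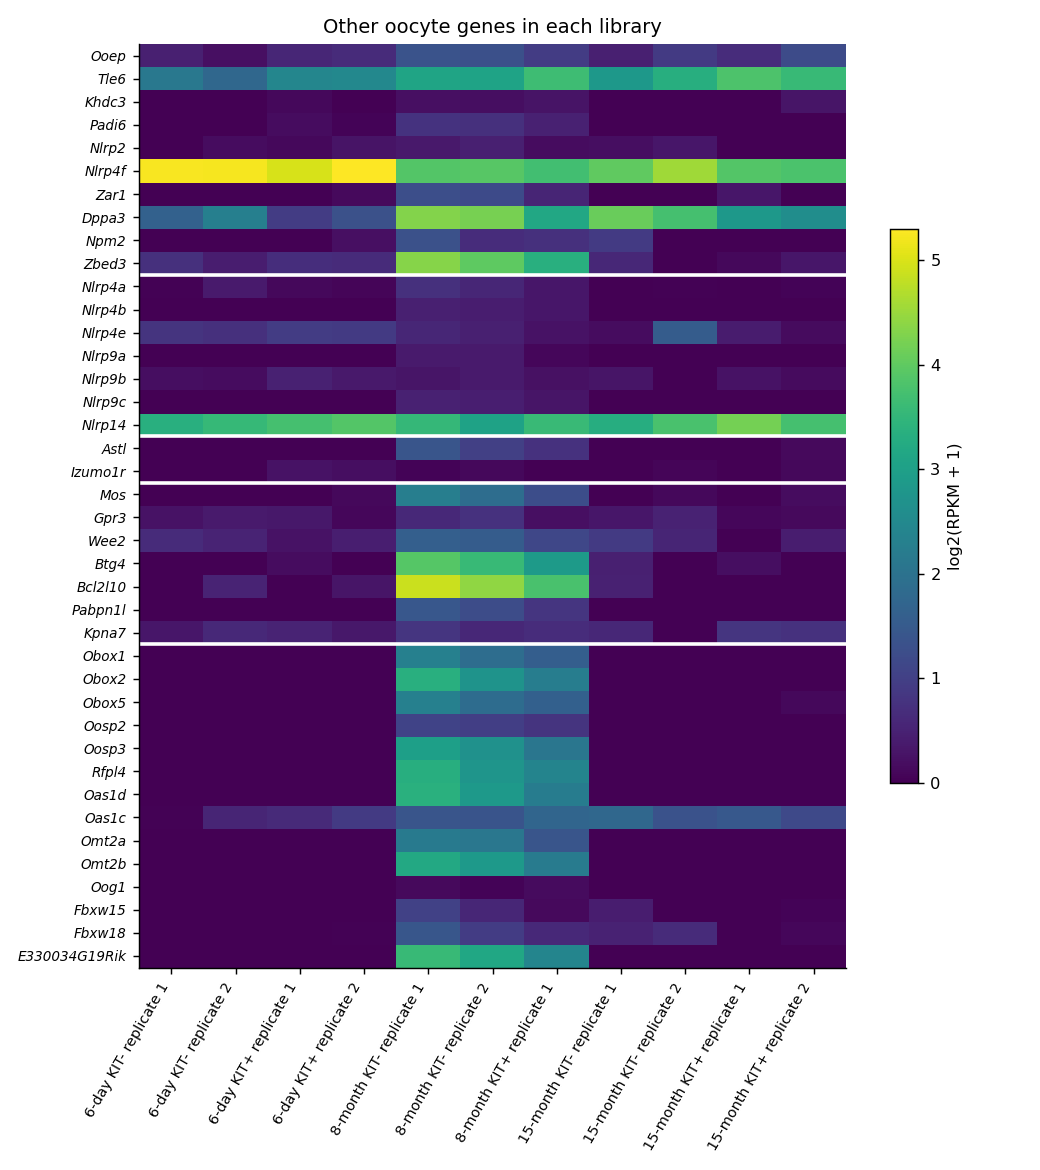
Heatmap of log2(RPKM + 1) of the 40 further oocyte genes (rows, with white lines between the 5 subgroups) in the 11 libraries (columns). A block of genes, with *Bcl2l10*, *Btg4*, *Zbed3*, *Obox2* and *Rfpl4*, is brighter in the 3 8-month columns and dark elsewhere. *Nlrp4f*, *Nlrp14* and *Tle6* have signal in every column, and *Tle6* is lowest at 6 days (2.41 to 4.57 RPKM).

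In the limma fit, KIT+ against KIT- at 8 months called 8 of the 37 tested list genes lower in KIT+ cells and 0 higher, against 6.85% and 7.00% of all genes tested. The 8 were *Dppa3*, *E330034G19Rik*, *Oosp3*, *Mos*, *Oas1d*, *Omt2a*, *Omt2b* and *Zar1*, named here after their values were seen, and 7 of them passed the filter through the 8-month libraries only (*Zar1* with 8 reads in the KIT+ library). Of these, *E330034G19Rik*, *Oosp3*, *Omt2a* and *Omt2b* were at 0 in all 8 libraries of other ages. For such genes the fit took its spread largely from libraries at or near 0. Their calls therefore cannot be weighed against the share over all genes. The list's median log2 fold change was -0.46 beside -0.03 over all genes. Without 8-month KIT- replicate 1 the list had 2 calls, without replicate 2 it had 14, with a mean of at least 1 RPKM required it had 2 (fewer genes were tested), and with voom, a pseudocount of 0.1 or the 8-month groups alone it had 0.

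Across age, the further list was fitted in 3 comparisons that share 8-month libraries. Of its 37 tested genes 19 passed the filter through the 8-month libraries only, so that a difference was set by the filter, and nothing is read from the counts over all 37. These were 25 called higher and 1 lower at 8 months than at 6 days in KIT- cells (15.0% and 7.79% of all genes), and from 8 to 15 months 19 called lower in KIT- cells and 14 in KIT+ cells (2.24% and 0.407% of all genes) with 0 higher (3.33% and 0.119%). The other 18 genes pass the filter in the 8 other libraries alone. The list was made with earlier results of these data known, so calls among these 18 are not independent evidence either. Of the 18, 9 were called higher at 8 months than at 6 days (*Bcl2l10*, *Btg4*, *Dppa3*, *Fbxw18*, *Oas1c*, *Ooep*, *Tle6*, *Wee2* and *Zbed3*) and 1 lower (*Nlrp4f*). From 8 to 15 months 5 of the 18 were called lower in KIT- cells and 3 in KIT+ cells (*Bcl2l10*, *Btg4* and *Zbed3*), whose 8-month group is 1 library. Of all calls between 6 days and 8 months 2757 were higher and 1434 lower, and with median-of-ratios scaling 2005 were higher and 2116 lower. With the compared groups fitted alone, both 15-month comparisons had 0 limma calls over all genes, with 3023 and 2889 genes at an unadjusted p under 0.05 in KIT- and KIT+ cells. In KIT+ cells the list had 9 calls of 37 without 15-month replicate 1 and 5 without replicate 2.

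By subgroup, the 8-month libraries all lay above the others for 11 of 14 genes of the oocyte families (9 of the 12 that passed the filter). This held for 4.15% of all genes tested, and the list was made with these data known. Of the 11, 9 were at 0 in all 8 other libraries, as *Obox1*, *Rfpl4*, *Omt2a* and *Omt2b* were. The 8-month libraries also all lay above the others for 5 of 7 genes of meiotic arrest and maturation, such as *Mos* and *Pabpn1l*. They did so for 3 of 10 maternal-effect genes (*Padi6*, *Zar1* and *Zbed3*) and for 1 of 2 egg surface genes (*Astl*, the egg protease ovastacin). Of the 7 *Nlrp* genes outside the subcortical complex, 3 did so, *Nlrp4b*, *Nlrp9a* and *Nlrp9c*, with 61, 34 and 83 reads over the 8-month libraries and 0 over the other 8. Their levels were under 0.4 RPKM. *Oog1* had 6 reads at 8 months and 0 elsewhere. The *Obox*, *Omt2*, *Oas1*, *Nlrp* and *Fbxw* genes have close copies in the genome, so the split of reads between copies is uncertain.

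Genes next to the members were compared to see whether the pattern ran over whole regions. The nearest protein-coding gene on either side of each of the 10 members was taken, and 3 of these had 8-month libraries that all lay above the others. The same held for 4.15% of all genes tested. *Plac1l*, 1 of the 3 neighbors, was not tested, so the 3 are not weighed against that share. Both neighbors of *Oosp1* were among the 3, and both were already counted in the further oocyte list, *Plac1l* without passing the filter. *Plac1l* (*Oosp2*), 6901 bp away, stood at 1.08, 0.976 and 0.747 RPKM in the 8-month libraries and *Gm97* (*Oosp3*), 5905 bp away, at 6.95, 5.41 and 3.25 RPKM, and both were at 0 in the other 8 libraries. These 3 genes are one family, oocyte-secreted proteins, side by side on chromosome 19. The third neighbor was *Dtx2*, 6176 bp from *Zp3*, at 12.1 to 12.6 RPKM at 8 months and 7.28 to 12.0 RPKM elsewhere.

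Next to *H1foo*, *Plxnd1* stood at 14.7 to 45.3 RPKM at 8 months and 11.2 to 25.1 RPKM elsewhere. Next to *Gdf9*, *Uqcrq*, 192 bp away on the other strand, stood at 3.04 to 4.20 RPKM at 8 months and 0.705 to 3.86 RPKM elsewhere, and *Gm10447* was at 0.0708 RPKM or less at 8 months. Next to *Bmp15*, *Nudt10* and *Shroom4* stood at 1.96 to 4.07 and 7.93 to 8.81 RPKM at 8 months, within the range of the other libraries but for the top of *Nudt10* (4.02 RPKM elsewhere). These neighbors of *H1foo*, *Gdf9* and *Bmp15* thus had reads at other ages as well as at 8 months. The neighbors *Prpf19*, *Gpr44*, *Tmem159*, *Anks4b*, *Srcrb4d*, *Dusp11*, *Add2*, *Arhgef5*, *Nlrp4e* and *Vmn1r167*, overlapped between 8 months and the other ages or were at 0 throughout.

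Across the 11 libraries, the 8 genes most like the members' mean log2(RPKM + 1) among the 12398 other genes at 1 RPKM or more on average at 8 months were *Gm15698*, *Obox5*, *Khdc1b*, *Rfpl4*, *Obox1*, *Btg4*, *Gm97* and *Omt2b* (Pearson r from 0.995 to 0.986, a description over libraries that share the 3 8-month ones). Of these, *Gm15698* and *Khdc1b* were in neither list. *Gm15698* had a mean of 6.33 RPKM at 8 months and at most 0.269 RPKM elsewhere, and *Khdc1b*, a KH-domain gene, had a mean of 2.73 RPKM and 0 elsewhere. Against the same mean profile, r was 0.982 to 0.987 for *H1foo*, *Gdf9*, *Bmp15* and *Oosp1*, 0.944 for *Zp2*, 0.887 for *Nlrp5*, 0.737 for *Figla*, 0.619 for *Zp1*, 0.553 for *Zp3* and 0.101 for *Nobox*, each of which is itself part of the mean.

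Germline regulators that testis and ovary share were present at every age. *Dazl*, an RNA-binding protein of germ cells, had the highest mean at 8 months of the 10 in that list, at 170 to 311 RPKM at 8 months and 263 to 462 RPKM elsewhere. *Lhx8*, a homeobox gene of early oocytes, was at 0 in all 11 libraries. None of the 10 had 8-month libraries that all lay above the others.

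Markers of other cells were read beside these genes, and their part in the results was not tested. Granulosa cells surround the oocyte, and their list of 10 genes had a summed RPKM of 12.7, 13.1 and 6.04 at 8 months (KIT- replicates 1 and 2, then KIT+), against 13.1 to 26.0 at 6 days and 3.03 to 17.2 at 15 months. *Foxl2*, the defining transcription factor of granulosa cells, had 0, 1 and 1 reads in the 8-month libraries and 0 elsewhere, and *Fshr*, the FSH receptor, had 0, 1 and 0. *Inhba*, an activin subunit, was the 1 granulosa gene above the other ages at 8 months, with 2, 6 and 1 reads there and 0 elsewhere. *Amh* (0.147 to 0.397 RPKM), *Hsd17b1* (0.122 to 0.359), *Cyp19a1* (0.0600 to 0.224) and *Kctd14* (0.0283 to 0.188) were under 0.4 RPKM at 8 months and no higher than in the highest 6-day library. *Inha* (1.66 to 2.50 RPKM), *Amhr2* (0.795 to 2.49) and *Nr5a2* (2.06 to 8.03) were also read at each other age. *Nr5a2* was the largest part of the list's sum in the 8-month KIT- libraries, at 7.90 and 8.03 RPKM. At 6 days *Nr5a2* stood at 6.66 to 13.8 RPKM and *Amh* at 1.52 to 4.27 RPKM. The list's sum is therefore not a measure of granulosa cells alone.

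Genes of the Y chromosome were present in every library. The summed RPKM of 8 of them was 129, 139 and 209 in the 8-month libraries, 169 to 189 at 6 days and 176 to 246 at 15 months. The lowest 8-month values were 3.19 RPKM for *Uty*, 10.2 for *Ddx3y*, 5.20 for *Kdm5d*, 16.7 for *Eif2s3y*, 24.4 for *Usp9y*, 2.03 for *Zfy1*, 2.01 for *Zfy2* and 62.7 for *Uba1y*. *Xist*, the RNA of the inactive X chromosome, stood at 1.14 and 1.08 RPKM in the 8-month KIT- libraries, 0.217 RPKM in the 8-month KIT+ library, 0.0402 to 0.226 RPKM at 6 days and 0.00389 to 0.472 RPKM at 15 months. It was called higher at 8 months than at 6 days in KIT- cells (log2 fold change 0.90 ± 0.13, limma adjusted p = 0.00227), lower at 15 than at 8 months in KIT- cells (-0.59 ± 0.13, limma adjusted p = 0.0357) and lower in KIT+ than in KIT- cells at 8 months (-0.79 ± 0.16, limma adjusted p = 0.0146). From 8 to 15 months in KIT+ cells its value was -0.21 ± 0.16 (limma adjusted p = 0.657).

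The summed RPKM of 6 spermatid genes, led by *Prm2* (protamine), was 88.9, 47.1 and 6.41 at 8 months in the same order, and 5 of the 5 tested were called lower in KIT+ cells, against 6.85% of all genes. The spermatid sum was higher still in the 15-month KIT- libraries, at 431 and 214 in replicates 1 and 2. The 4 oocyte genes together were at 0.203 and 0.982 RPM there, and a link between them and the spermatid sum was not tested. The 6 Leydig genes summed to 9.98, 12.0 and 6.24 RPKM at 8 months, 1.78 to 3.44 at 6 days and 1.64 to 16.3 at 15 months, with *Star* the highest by mean at 8 months and *Insl3* at 0 in all 11 libraries. *Hsd3b1*, a steroid enzyme, was the 1 Leydig gene above the other ages at 8 months (1.94, 2.46 and 2.19 RPKM against at most 0.492). Sertoli genes (7 of 8 in the tables, *Wt1* the highest by mean at 8 months) summed to 3.58 to 5.75 RPKM at 8 months, 2.46 to 3.92 at 6 days and 2.48 to 9.13 at 15 months. Macrophage genes (8, *Cd68* the highest by mean at 8 months) summed to 3.94 to 5.95, 0.950 to 3.54 and 2.18 to 46.9 RPKM, and spermatocyte genes (7, *Tex101* the highest by that mean) to 218 to 256, 330 to 370 and 352 to 621 RPKM, in the same order of ages.

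Undifferentiated spermatogonial genes (11, *Lin28a* the highest by mean at 8 months) summed to 128 to 485 RPKM at 8 months, 228 to 342 at 6 days and 107 to 480 at 15 months, and differentiating ones (5, *Sohlh2* the highest by that mean) to 86.8 to 312, 97.9 to 293 and 103 to 379 RPKM. In KIT+ against KIT- cells at 8 months, 9 of 11 of the first were called lower (6.85% of all genes) and 5 of 5 of the second higher (7.00%). *Kit* is 1 of these 5, and the fractions were sorted on its protein, so its call was set by the sort. Like every call of that comparison, these and those of the spermatid genes and *Xist* were lost with the 8-month groups fitted alone.

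**Figure D5:**
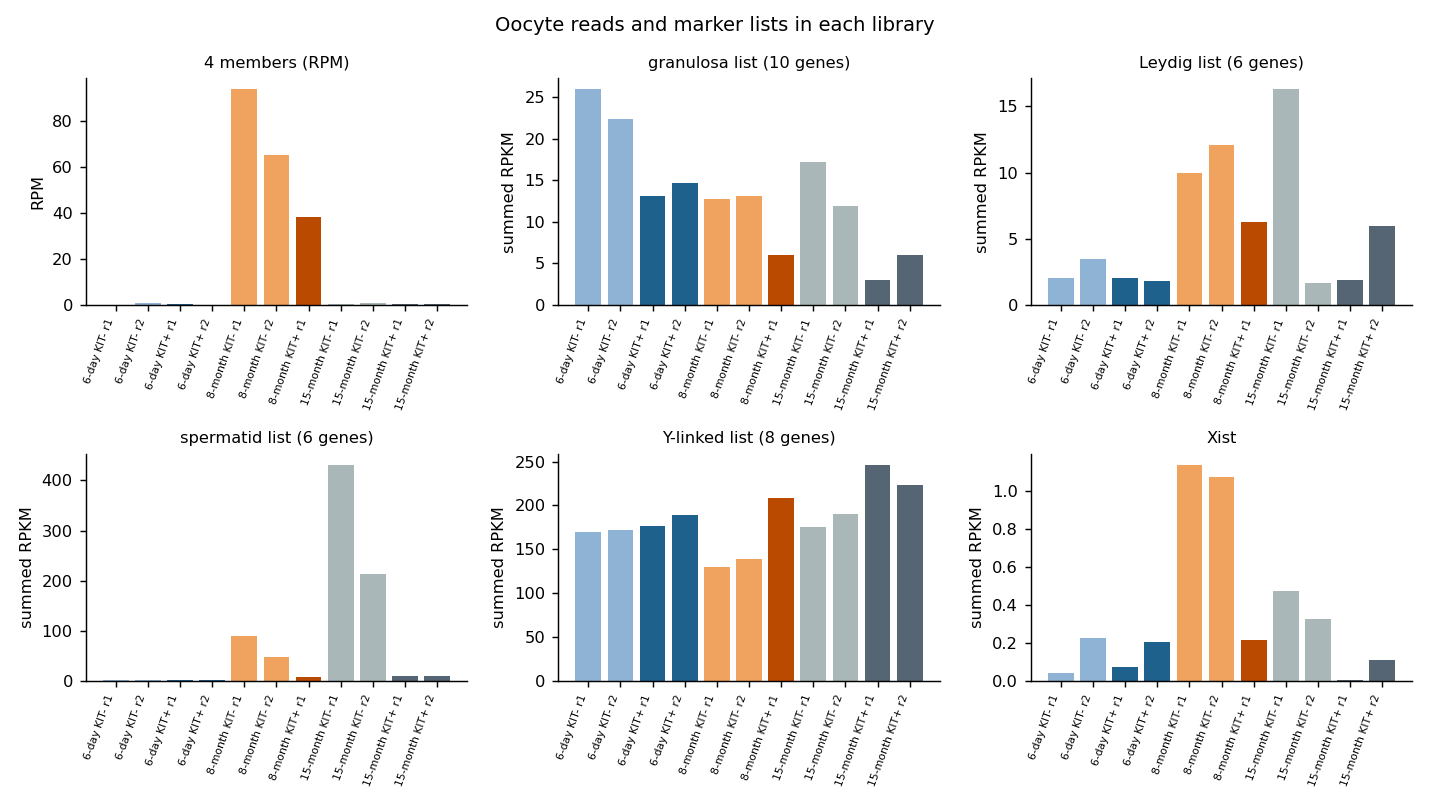
Bars, from 0, of the joint level (RPM) of *H1foo*, *Gdf9*, *Bmp15* and *Oosp1* and of the summed RPKM of the granulosa, Leydig, spermatid and Y-linked lists and of *Xist*, in each of the 11 libraries (r1 and r2 are replicates). The 4 oocyte genes stand at 94.0, 65.6 and 38.5 RPM in the 8-month libraries and under 1 elsewhere, and of the other panels the Leydig and spermatid lists and *Xist* are above every 6-day library in both 8-month KIT- libraries.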

How the data were processed

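The genes, lists and cutoffs were chosen with earlier results of these data known. The authors deposited 1 RPKM value per gene and library. Their paper names Trimmomatic, mm9 and featureCounts on Ensembl genes, while the submitters' processing notes name Trim Galore and RSEM, and strand use is not given in the sources used here. Each table held 39331 rows for 37991 genes, of which 37205 were named from GENCODE M1 (mm9). RPKM times exon length and library total gave back whole reads (within 0.05) for 98.1% to 98.3% of values under 200 reads, which gave the depth of 12238325 to 76756536 reads on genes and so the precision of low values. Replicates are labelled as separate libraries, so p-values rest on the spread between libraries of the same group. The 8-month KIT+ group is 1 library and has no such spread, so tests that use it took the spread from the other groups. For genes hardly read outside the 8-month libraries, that spread came largely from libraries without reads of the gene, and p-values can be too small.

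One limma (3.58.1, R 4.3.3) model of log2(RPKM + 1) with 6 groups and a variance trend was fitted to 11 libraries and 18412 genes with 10 or more reads in 2 or more libraries. A call needed a Benjamini-Hochberg adjusted p no higher than 0.05 with a difference of 1.5-fold or more. Scripts (Python 3.11.15, numpy 2.4.6, pandas 2.3.3, scipy 1.17.1, matplotlib 3.10.9) were tested on simulated data. Named genes are the 10 members, the 8 highest further oocyte genes, the granulosa, Y-linked and *Xist* genes, the highest of each other list, the members' neighbors (some are not reported here) and the 8 genes most like them. Further list genes named in the text were chosen after their values were seen. Alternatives were a pseudocount of 0.1, other filters, scaling by median of ratios, voom, the compared groups alone, a replicate block and each replicate left out.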

Additional observations from a re-analysis of the deposited data

How the results depend on the processing

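In the KIT comparison at 8 months, all genes called (2550) fell to 1416 with voom and to 0 with the compared groups alone or a replicate block, the calls of the further oocyte list (8) became 2 with a mean of at least 1 RPKM and 0 with a pseudocount of 0.1, voom, the groups alone or the block, and the members called (3) became 0 under those same 4 settings. From 8 to 15 months, all genes called in KIT- cells (1025) became 452 with voom and 0 with the groups alone, where the oocyte list also had 0. In KIT+ cells (97) they became 379 without a filter, 179 with a mean of at least 1 RPKM, 219 with voom, 0 with the groups alone (oocyte list 0) and 179 with the block. With a mean of at least 1 RPKM, where fewer genes were tested, the oocyte list had 13, 9 and 9 calls in the 3 age comparisons. With 1 replicate left out, calls ranged from 980 to 1404 over all genes, 2 to 14 in the list and 1 to 3 among members for KIT, 2199 to 2977 over all genes for 8 months against 6 days, 252 to 1700 and 22 to 50 over all genes for 15 against 8 months in KIT- and KIT+ cells, and 5 to 9 in the list for the last. In KIT- cells the 15-month comparison had 1700 and 1622 calls without 15-month replicates 1 and 2, and 291 and 252 without 8-month replicates 1 and 2. The log2 fold change of *Figla* in the KIT comparison ranged from -0.35 to 0.025, the latter without 8-month KIT- replicate 1. The other 51 list and gene counts stayed within 1.5 times. Same-numbered KIT- and KIT+ libraries did not deviate together (correlation of deviations 0.0458 at 6 days and -0.0577 at 15 months), so the numbers were not taken as pairs. Causes were not tested. Depth limits the zona genes, at 1 to 8 reads for *Zp1* and *Zp2* per 8-month library.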
